A study of Mus musculus with 9 samples.

Results

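The chemokine system on these arrays comprised 51 genes, 35 ligands and 16 receptors, out of 27962 gene names with a non-control probe. They were taken by name, as every gene called Ccl, Cxcl, Ccr or Cxcr with a number, together with Cx3cl1, Cx3cr1, Xcl1 and Xcr1. No measured value entered this choice. Dorsal root ganglia (DRG) of lumbar levels L3/L4 from adult mice were profiled on 9 two-colour Agilent arrays. There were 4 uninjured samples and 5 injured samples collected 3 days after transection of the sciatic nerve. All 9 carried the labels cre.neg and jun.wt, so both groups shared one genotype label and neither was labelled as carrying Cre. Each sample was labelled with Cy5 and hybridised against universal mouse reference RNA in Cy3, with no dye swap. The levels below are log2 ratios of sample over that reference, and a difference is injured minus uninjured. The series text names L4 where the labels name L3/L4, and the study's results text gives 24 hr for the array experiment where the labels and its methods give 3 days. For nerve crush with other assays, the study's methods used ganglia of the intact side as controls, but they do not name the arrays there, so the side or mouse of the uninjured array samples is not given in the sources used here. Nothing in the labels ties an array to an animal, so p-values measure only the spread between these samples, which may be partly technical.

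Chemokines are small secreted proteins that direct the migration of leukocytes, and they are grouped as CC, CXC, CX3C and XC ligands by the spacing of conserved cysteines. Their receptors are G protein-coupled receptors of matching classes, most of which bind several ligands. In the DRG, CC ligands such as Ccl2 have been described in injured sensory neurons and in satellite glia, and Ccr2 and Cx3cr1 are receptors of monocytes and macrophages. A DRG is a mixture of these and other cells, and in such bulk RNA a change in the number of cells of a type and a change in RNA per cell cannot be told apart.

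The brightest probe of 35 of the 51 genes was well above background in Cy5 on all 9 arrays. Ccl20, Ccl22, Ccr1 and Cxcl15 were not well above background on any array, and the other 12 genes were measured on some arrays. Requiring signal above background on at least 4 arrays left 43 genes to test, 30 ligands and 13 receptors. The 8 untested genes were Ccl20, Ccl22, Ccr1, Ccr7, Ccr8, Cxcl15, Cxcl2 and Xcl1. All 11 sensory neuron markers listed were above background on all 9 arrays, as were all 8 muscle, 8 endothelial, 6 fibroblast and 7 Schwann cell markers, so that detection alone does not tell these tissues apart.

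Injury was followed by higher levels of a set of CC ligands, led by Ccl8, Ccl7 and Ccl12. Of the 43 tested genes, 11 rose and 0 fell at an adjusted p under 0.05 in limma. At an unadjusted p under 0.05 there were 12 higher (the same 11 and Ccl19) and 0 lower, and in 7 of 26 alternative fits 1 gene passed as lower, namely Ccl24, Ccl1 or Ccl27. The 11 are 25.6% of the tested genes. At the adjusted threshold, 25.4% of all 21097 genes tested passed in either direction, 11.5% upward and 13.9% downward. The share of chemokine system genes that passed was therefore near the background in total and above it in the upward direction, and no test of the set was made. For this comparison the share of all genes at an unadjusted p under 0.05 is not given. Counts at that level, here and for the lists below, therefore have no background beside them. Among the 43 genes 34 had a higher mean after injury and 9 a lower one, with a median difference of 0.19 against 0.00 over all genes. Of the 30 tested ligands 10 rose, with a median difference of 0.31, and the median over the 13 tested receptors was 0.09. The calls were made with all arrays weighted equally and without a slide term.

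**Figure D1:**
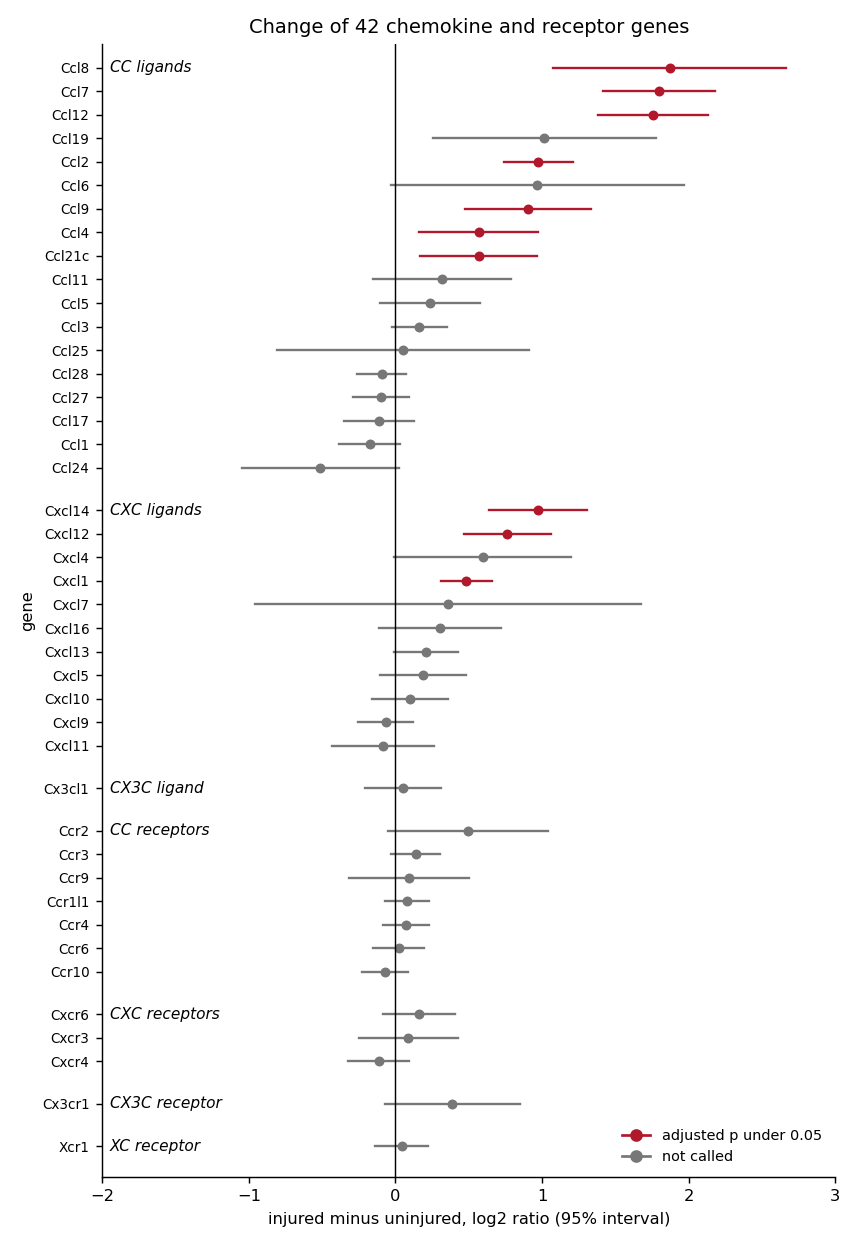
Injured minus uninjured difference of the log2 ratio for 42 of the tested chemokine and receptor genes, grouped by class, with points as estimates and lines as 95% intervals from limma. The 10 genes in red passed an adjusted p under 0.05, all to the right of 0, and Ccl8, Ccl7 and Ccl12 lie farthest right at 1.87, 1.80 and 1.76.

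The largest changes lay in one run of neighbouring genes on chromosome 11. In the array annotation (mouse build mm7) the probes follow the order Ccl2, Ccl7, Ccl11, Ccl12, Ccl8 and Ccl1, from the Ccl2 probe at chr11:82118723-82118782 to the Ccl8 probe at chr11:82198181-82198240 and on to Ccl1. All 6 are CC ligands, and 4 of them rose. The median difference over the 6 was 1.37. Promoter sequence (RefSeq, GRCm38.p6) was at hand for Ccl12, Ccl8 and Ccl1 of this run and for Ccl9 of a second run described below, and is shown because these are genes of the same class that moved to different degrees. The 250 bases before each start site are given 5′ to 3′, with the TATA motif TATAAA, searched on both strands, in capitals.
Ccl12 (chr11:82101595-82101844, plus strand): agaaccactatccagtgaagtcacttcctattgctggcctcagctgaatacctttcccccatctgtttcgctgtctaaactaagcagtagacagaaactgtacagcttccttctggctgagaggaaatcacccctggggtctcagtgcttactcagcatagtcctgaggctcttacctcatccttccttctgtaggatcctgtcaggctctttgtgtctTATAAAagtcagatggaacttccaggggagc
Ccl8 (chr11:82114935-82115184, plus strand): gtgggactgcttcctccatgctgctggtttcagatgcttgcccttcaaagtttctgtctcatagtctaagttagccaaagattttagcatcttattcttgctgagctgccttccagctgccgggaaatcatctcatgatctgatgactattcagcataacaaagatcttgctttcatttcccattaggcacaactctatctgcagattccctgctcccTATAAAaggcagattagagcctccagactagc
Ccl9 (chr11:83578637-83578886, minus strand): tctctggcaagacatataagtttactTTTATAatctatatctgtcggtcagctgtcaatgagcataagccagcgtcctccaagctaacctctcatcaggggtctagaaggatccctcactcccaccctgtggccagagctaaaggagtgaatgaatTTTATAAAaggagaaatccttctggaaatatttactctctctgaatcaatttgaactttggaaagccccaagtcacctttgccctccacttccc
Ccl1 (chr11:82179813-82180062, minus strand): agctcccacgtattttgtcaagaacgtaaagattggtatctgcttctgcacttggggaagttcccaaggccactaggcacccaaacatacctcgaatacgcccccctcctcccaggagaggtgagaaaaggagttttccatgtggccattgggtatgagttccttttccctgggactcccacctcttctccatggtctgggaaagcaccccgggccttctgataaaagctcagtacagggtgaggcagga

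TATAAA began 31 bases before the start of Ccl12 and 32 bases before that of Ccl8, and was not in the window of Ccl1. It occurred in the same window of 14.3% of the 27025 genes with a promoter entry and of 12 of the 38 chemokine system genes with one. Of the 11 genes that rose, 6 had an entry. In the window, 3 of these, Ccl12, Ccl8 and Ccl9, held the motif, and Cxcl1, Cxcl12 and Cxcl14 did not. The AP-1 motif TGANTCA was held by 7.82% of all genes, by 6 of the 38 and, among those that rose, by Ccl9. The NF-κB consensus was held by 4.46% of all genes, by 7 of the 38 and, among those that rose, by Ccl9 and Cxcl1. CCAAT was held by 37.5% of all genes, by 11 of the 38 and by none of the 6 that rose. The letters alone are a description and do not show binding. The longest run of letters shared by the windows of Ccl12 and Ccl8 was 8 bases, and by those of Ccl12 and Ccl1 7 bases.

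Ccl12, a ligand of Ccr2, had log2 ratios of -0.13, -0.28, 0.32 and 0.38 in the uninjured samples. In the injured samples they were 1.57, 2.06, 1.75, 1.60 and 2.16. The groups did not overlap, and the gap between them was wider than the range within either. The difference was 1.76 ± 0.17 (SE, n = 4 and 5), 3.38-fold, with an adjusted p of 4.49e-05 in limma.

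Ccl7, another ligand of Ccr2 that also binds Ccr1 and Ccr3, was at -4.22, -4.58, -3.97 and -3.58 in the uninjured and at -2.39, -2.08, -2.27, -2.51 and -2.21 in the injured samples. Every injured sample was again above every uninjured one. The difference was 1.80 ± 0.17 (SE), 3.47-fold, with a limma adjusted p of 4.53e-05. A second probe to the same transcript gave 1.67 ± 0.11 (SE).

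Ccl8 varied more among samples than its neighbours did. Its log2 ratios were -0.87, -0.9997, 0.34 and -0.28 in the uninjured samples. They were 0.77, 1.87, 0.90, 1.20 and 2.34 in the injured samples, with injured 2 and injured 5 highest and no overlap between groups. The difference of 1.87 ± 0.36 (SE), 3.65-fold, had a limma adjusted p of 0.00346 and was 1.64 without injured 5. Its size depended on the processing, at 2.66 with a normexp offset of 0 and 2.85 with Agilent's log ratio.

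Ccl2 is the main attractant of Ccr2-bearing monocytes. It was at -4.11, -4.37, -4.06 and -4.01 in the uninjured and at -3.14, -2.98, -3.33, -3.37 and -2.99 in the injured samples. The groups were separate and both narrow, with SDs of 0.16 and 0.18. Its difference was 0.98 ± 0.11 (SE), 1.97-fold, with a limma adjusted p of 0.000104. The 95% interval, 0.74 to 1.21, lay below those of Ccl7 (1.41 to 2.18) and Ccl12 (1.38 to 2.13).

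Between Ccl7 and Ccl12 lies Ccl11, the eosinophil attractant eotaxin, which did not pass. It ranged from 1.84 to 2.98 in the uninjured and from 2.46 to 2.90 in the injured samples, so the injured values fell inside the uninjured range. The difference was 0.32 ± 0.21 (SE; limma adjusted p of 0.32), and ranged from 0.14 without uninjured 2 to 0.52 without uninjured 4 (adjusted p of 0.664 and 0.0686). Ccl1, a ligand of Ccr8 at the far end of the run, was at -0.18 ± 0.09 (limma adjusted p of 0.202).

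**Figure D2:**
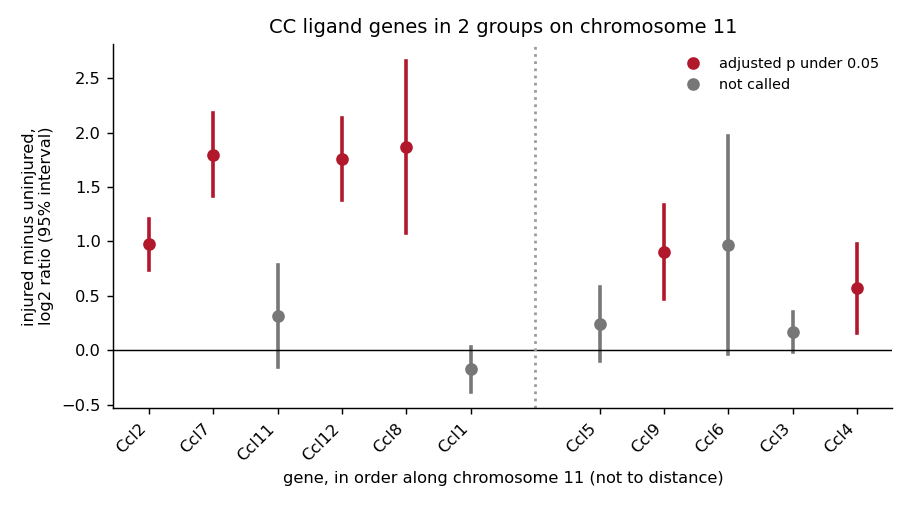
Injured minus uninjured difference of the log2 ratio, with 95% intervals from limma, for the CC ligand genes of 2 runs on chromosome 11 in the order of their probes, not to distance. In the first run Ccl2, Ccl7, Ccl12 and Ccl8 rose by 0.98 to 1.87 while Ccl11 and Ccl1 were not called, and in the second run only Ccl9 and Ccl4 were called.

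A second run on chromosome 11 held, in order, Ccl5, Ccl9, Ccl6, Ccl3 and Ccl4. Of these 5 genes 2 rose, and the median difference was 0.57. The 11 genes of both runs had 6 calls and a median of 0.90, and the 32 tested genes elsewhere had 5 calls and a median of 0.10, beside 11.5% of all genes upward. The runs were set apart after the values were seen, and the difference between these groups of genes was not tested.

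Ccl9, a ligand of Ccr1, was at -2.78, -2.95, -2.39 and -2.56 in the uninjured and at -2.26, -1.43, -1.96, -1.91 and -1.28 in the injured samples. The groups did not overlap, and injured 1 was closest to the uninjured samples. The difference was 0.90 ± 0.19 (SE), 1.87-fold, with a limma adjusted p of 0.00654. Ccl4, or MIP-1β, attracts monocytes and T cells. It was at -5.19, -4.75, -5.07 and -4.92 in the uninjured and at -4.79, -4.67, -4.46, -4.39 and -3.77 in the injured samples. Injured 1 overlapped with the uninjured group, and injured 5 was the highest. The difference was 0.57 ± 0.18 (SE), 1.48-fold, with a limma adjusted p of 0.0444. This call was lost without any one of uninjured 1, uninjured 3, uninjured 4, injured 3 and injured 4 (adjusted p of 0.0681 to 0.122).

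The other ligands of this run did not pass. Ccl6, a CC ligand of rodents that attracts macrophages, differed by as much as Ccl9, 0.97 ± 0.45 (SE), but with a limma adjusted p of 0.149. It ran from 0.35 to 1.74 in the uninjured samples, while the injured ones were at 1.03, 3.23, 1.70, 1.42 and 2.72. Only injured 2 and injured 5 were above the uninjured range. Ccl5, or RANTES, differed by 0.24 ± 0.15 (SE; adjusted p of 0.300), or by 0.13 without injured 2, and Ccl3, or MIP-1α, by 0.16 ± 0.08 (SE; adjusted p of 0.184).

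Among the remaining CC ligands, the ligands of Ccr7, Ccl19 and Ccl21c, were both higher after injury, and 1 of them passed. Ccl21c was at 2.59, 1.97, 2.28 and 2.98 in the uninjured and at 2.84, 2.82, 3.03, 3.23 and 3.19 in the injured samples, so that uninjured 4 lay within the injured range. The difference was 0.57 ± 0.18 (SE), 1.48-fold, with a limma adjusted p of 0.0420. Without any one of uninjured 1, uninjured 2, uninjured 3, injured 3, injured 4 and injured 5 the adjusted p was 0.0648 to 0.110. The same reference RNA was on every array, yet its Cy3 signal at the Ccl21c probe was also 0.33 ± 0.08 (SE) higher in the injured group (unadjusted p of 0.0018 and adjusted p of 0.206 in limma). The difference was 0.90 in the Cy5 channel alone (adjusted p of 0.00771), but 0.33 with a normexp offset of 0 (adjusted p of 0.279) and 0.18 with Agilent's log ratio (adjusted p of 0.588). The mouse genome holds several near-identical copies of Ccl21 and Ccl19, and the probe may not separate them.

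Ccl19 was at 2.04, 1.59, 2.73 and 2.74 in the uninjured and at 2.78, 3.66, 2.88, 2.84 and 4.28 in the injured samples. All injured values were above all uninjured ones, though injured 1 only by a small margin. The difference was 1.01 ± 0.34 (SE), 2.02-fold, and its limma adjusted p of 0.0532 missed the threshold. It passed as the average of its 2 probes (1.09, adjusted p of 0.0383), in the Cy5 channel alone (1.25, adjusted p of 0.0118) and without injured 1 (1.14, adjusted p of 0.0432). Its Cy3 signal was 0.24 ± 0.09 (SE) higher in the injured group. Their receptor Ccr7 was not well above background on any uninjured array and on 2 of the 5 injured arrays.

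The CC ligands Ccl17, Ccl24, Ccl25, Ccl27 and Ccl28 were not called, with differences between -0.51 for Ccl24 and 0.05 for Ccl25. Ccl24, an eosinophil attractant, had the lowest estimate of the 43 genes, -0.51 ± 0.24 (SE; limma adjusted p of 0.153), with both groups overlapping. Ccl20, the ligand of Ccr6, and Ccl22, a ligand of Ccr4, were not well above background on any array.

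**Figure D3:**
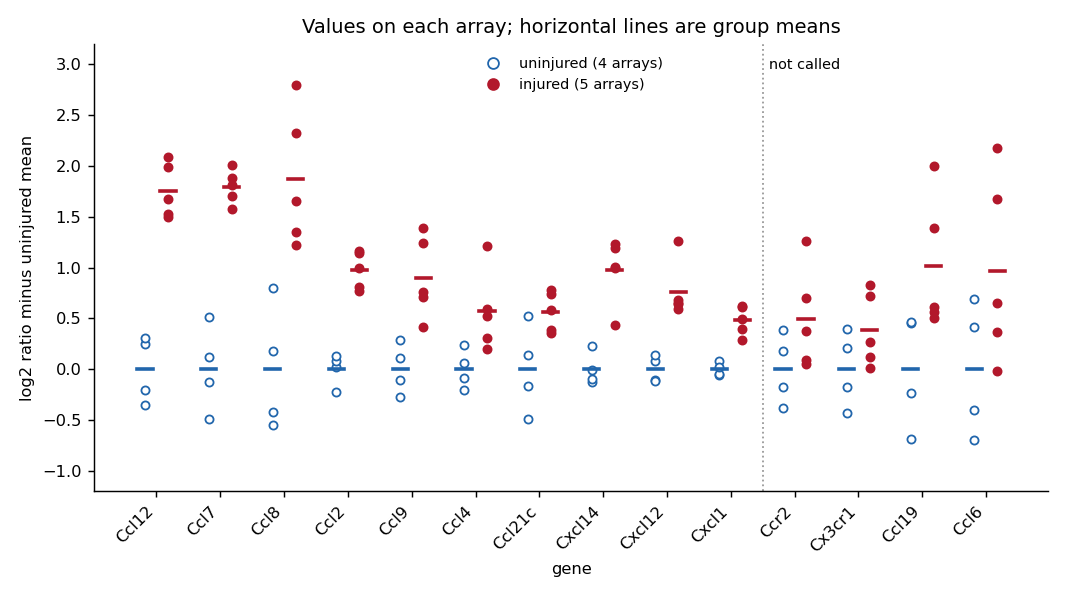
Log2 ratio on each array minus the uninjured mean of the gene, for 10 genes that rose and, right of the dotted line, for 4 that were not called. Open circles are the 4 uninjured and filled circles the 5 injured samples, with group means as lines. The groups are separate for Ccl12, Ccl7, Ccl8, Ccl2, Ccl9, Cxcl14, Cxcl12, Cxcl1 and Ccl19.

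Of the 11 tested CXC ligands 3 rose, against 11.5% of all genes, with differences below those of the leading CC ligands. Cxcl14, or BRAK, whose receptor is not settled, was at -0.93, -0.82, -0.58 and -0.91 in the uninjured and at -0.37, 0.43, 0.38, 0.20 and 0.19 in the injured samples. The groups did not overlap, and injured 1 was the lowest of its group. The difference was 0.97 ± 0.15 (SE), 1.97-fold, with a limma adjusted p of 0.00100.

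Cxcl12, the ligand of Cxcr4 that many stromal cells make, was at -2.29, -2.24, -2.48 and -2.49 in the uninjured samples. In the injured samples it was at -1.74, -1.12, -1.72, -1.70 and -1.78, where 4 values lay close together and injured 2 stood apart above them. The difference was 0.76 ± 0.13 (SE), 1.70-fold, with a limma adjusted p of 0.00199, and 0.64 without injured 2 (adjusted p of 0.000384). A second probe, annotated with another transcript accession of the gene, gave 0.48 ± 0.31 (SE) and did not pass.

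Cxcl1, a neutrophil attractant that acts on Cxcr2, was at -4.96, -4.95, -4.82 and -4.88 in the uninjured and at -4.29, -4.62, -4.41, -4.50 and -4.29 in the injured samples. The groups were separate, and the uninjured SD was 0.07. The difference was 0.48 ± 0.08 (SE), 1.40-fold, with a limma adjusted p of 0.00139, and 1.08 with Agilent's log ratio (adjusted p of 0.00526).

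The other CXC ligands did not pass. The interferon-induced ligands of Cxcr3 were close to no change, with differences of 0.10 ± 0.12 (SE) for Cxcl10, -0.07 ± 0.09 (SE) for Cxcl9 and -0.08 ± 0.16 (SE) for Cxcl11. Cxcl16, the membrane-bound ligand of Cxcr6, differed by 0.30 ± 0.19 (SE), and Cxcl5, which shares Cxcr2 with Cxcl1, by 0.19 ± 0.13 (SE). Cxcl5 was well above background in only 1 of the 4 uninjured and 3 of the 5 injured samples. Cxcl13, a B cell attractant, was not well above background in any uninjured sample but was in 4 of the 5 injured ones. Its log2 ratios were 0.04, 0.04, 0.14 and 0.19 in the uninjured and 0.39, 0.38, 0.45, 0.38 and -0.05 in the injured samples, where injured 5 was below all others. The difference of 0.21 ± 0.10 (SE; limma adjusted p of 0.157) did not pass. It passed without injured 5 (0.30, adjusted p of 0.00386), without background correction (0.33, adjusted p of 0.0307), in Cy5 processed signal (1.86, adjusted p of 0.00610) and with array weights (0.26, adjusted p of 0.0166). Cxcl2 was above background in 1 uninjured sample only and Xcl1 in 1 injured sample only.

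Cxcl4 and Cxcl7, platelet chemokines now named Pf4 and Ppbp, differed by 0.59 ± 0.27 (SE) and 0.36 ± 0.60 (SE) and did not pass. Cxcl7 was between -0.69 and 0.83 in the uninjured samples and between -0.60 and -0.17 in 4 injured samples, but at 2.49 in injured 2. Cx3cl1, or fractalkine, a membrane-anchored ligand made by neurons, differed by 0.05 ± 0.12 (SE; 95% interval of -0.21 to 0.31).

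Among the receptors, Ccr2, which binds Ccl2, Ccl7 and Ccl12, was at 1.096, 0.89, 1.66 and 1.45 in the uninjured and at 1.33, 2.53, 1.65, 1.37 and 1.97 in the injured samples. Only injured 2 and injured 5 were above the uninjured range. The difference was 0.49 ± 0.25 (SE; 95% interval of -0.05 to 1.04; limma adjusted p of 0.176), and 0.30 without injured 2. Its ligands Ccl2, Ccl7 and Ccl12 had differences of 0.98, 1.80 and 1.76 on the same arrays. Taken array by array, Ccl2 minus Ccr2 ran from -5.71 to -5.21 in the uninjured and from -5.51 to -4.47 in the injured samples, so the groups overlapped. For Ccl7 minus Ccr2 and Ccl12 minus Ccr2 the groups did not overlap.

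Cx3cr1, the fractalkine receptor of macrophages, was between 0.681 and 1.503 in the uninjured and between 1.11 and 1.94 in the injured samples, again with injured 2 and injured 5 highest. The difference was 0.39 ± 0.21 (SE; limma adjusted p of 0.208), and a second probe gave 0.10 ± 0.08 (SE). Cxcr4, the receptor of Cxcl12, differed by -0.12 ± 0.09 (SE; 95% interval of -0.32 to 0.09), beside 0.76 for its ligand. Cmkor1, the older name of Cxcr7, which also binds Cxcl12, differed by 0.07 ± 0.25 (SE). Cxcr3, a receptor of activated T cells, differed by 0.09 ± 0.15 (SE), Cxcr6 by 0.16 ± 0.11 (SE) and Ccr6 by 0.02 ± 0.08 (SE).

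These receptors, together with Ccr1l1, Ccr3, Ccr4, Ccr9, Ccr10 and Xcr1, did not pass and ranged from -0.12 for Cxcr4 to 0.49 for Ccr2, with limma adjusted p between 0.176 and 0.875. Ccr8 was above background in 1 injured sample only, and Ccr1, the receptor shared by Ccl3, Ccl5, Ccl7 and Ccl9, was not above background on any array. The receptor of Cxcl1 and Cxcl5, Cxcr2, is on the array as Il8rb and differed by 0.42 ± 0.27 (SE; limma adjusted p of 0.298).

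Genes that act upstream and downstream of chemokines were described from lists. A list named inflammatory inducers held 24 tested genes, among them Nfkbia, Tnfaip3, Icam1 and Vcam1, which do not induce chemokine genes. Of the 24, 12 rose and 0 fell in limma (17 and 2 at an unadjusted p under 0.05). Over all genes tested, 11.5% rose and 13.9% fell at an adjusted p under 0.05. The median difference of the list was 0.34. Its mean level was 0.40 to 0.70 above the uninjured mean in the injured samples, against -0.09 to 0.11 in the uninjured ones. The largest rise was that of Il6, 2.38 ± 0.09 (SE; limma adjusted p of 5.11e-08), a cytokine of the acute injury response. Csf1, which sustains macrophages, rose by 2.01 ± 0.11 (SE; limma adjusted p of 7.80e-07). Il1b, counted among the 12, differed by 0.61 ± 0.13 (SE). It was well above background in only 1 of the 4 uninjured but all 5 injured samples. It therefore met the filter only through the injured group, and its uninjured level is near the floor. The NF-κB subunits Rela, Nfkb2, Nfkb1 and Relb rose by 0.63, 0.35, 0.34 and 0.22, while Tnf, at 0.16 ± 0.07 (SE), did not pass. Irf1, which acts in the interferon response, was at 0.02 and did not pass.

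Signal transduction genes of chemokine receptors moved in both directions, 9 up and 11 down of 40 tested, against 11.5% up and 13.9% down over all genes. The largest fall that passed was that of the phospholipase Plcb3, at -0.77 ± 0.12 (SE; limma adjusted p of 0.000858). Among arrestins and receptor kinases, Arrb1 and Grk6 rose by 0.80 and 0.67 while Arrb2, Adrbk1 and Adrbk2 were at -0.31, -0.28 and -0.57 and also passed. Of 13 tested chemokine-like or decoy genes only Cmtm3 rose, by 0.54 ± 0.12 (SE; adjusted p of 0.00809).

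Marker lists of macrophages and blood cells were read from the same arrays. The counts that passed in limma for each marker list, here and in the next paragraph, stand beside 11.5% of all genes upward and 13.9% downward. The unadjusted counts have no such share beside them. Of 15 macrophage markers 5 rose (Aif1, Cd14, Fcer1g, Itgam and Msr1) and 0 fell in limma (11 and 0 at an unadjusted p under 0.05), with a median difference of 0.69. The mean of the list stood between -0.41 and 0.34 in the uninjured and between 0.10 and 1.03 in the injured samples, highest on injured 2 and injured 5, so that the groups overlapped. Of 5 monocyte markers 1 rose in limma, Plac8, by 1.36 ± 0.32 (SE), while 3 were higher and 0 lower at an unadjusted p under 0.05. The median difference was 0.70, with the list at -0.30 to 0.14 in the uninjured and 0.35 to 1.85 in the injured samples. Of 7 neutrophil markers 1 rose in limma, Mpo, by 1.49 ± 0.44 (SE), while 6 were higher and 0 lower at an unadjusted p under 0.05. The median difference was 1.48, with the list at -0.46 to 0.58 in the uninjured samples. It was at 3.17 in injured 2, at 1.73 in injured 4 and at 0.50 to 0.74 in the other injured samples. Of 4 red blood cell markers 0 passed in limma (3 were higher at an unadjusted p under 0.05), and the list reached 1.42 in injured 2 and 1.04 in injured 5 against at most 0.27 in uninjured samples. Of 6 platelet markers, which include Cxcl4 and Cxcl7 themselves, 1 rose in limma (Gp1bb) and 2 were higher at an unadjusted p under 0.05. The platelet list reached 1.12 in injured 2.

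Of 9 T cell and NK cell markers 1 rose (Lck), of 4 dendritic cell markers 1 (Itgax), of 8 endothelial markers 1 (Tek), and of 6 satellite glia markers 1 (Glul). At an unadjusted p under 0.05 these lists had 1, 1, 3 and 1 higher. Of 5 B cell, 6 fibroblast and 7 Schwann cell markers 0 passed in limma, and 0, 0 and 2 were higher at an unadjusted p under 0.05. Of 11 sensory neuron markers 2 fell, Scn9a and Isl1, and 4 were lower at an unadjusted p under 0.05. Of 8 muscle markers 0 passed in limma and 1 was higher at an unadjusted p under 0.05, but their mean was 1.95 in injured 2 and 3.67 in injured 4, against -0.13 to 0.23 in the other injured samples. Muscle is not part of a ganglion.

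**Figure D4:**
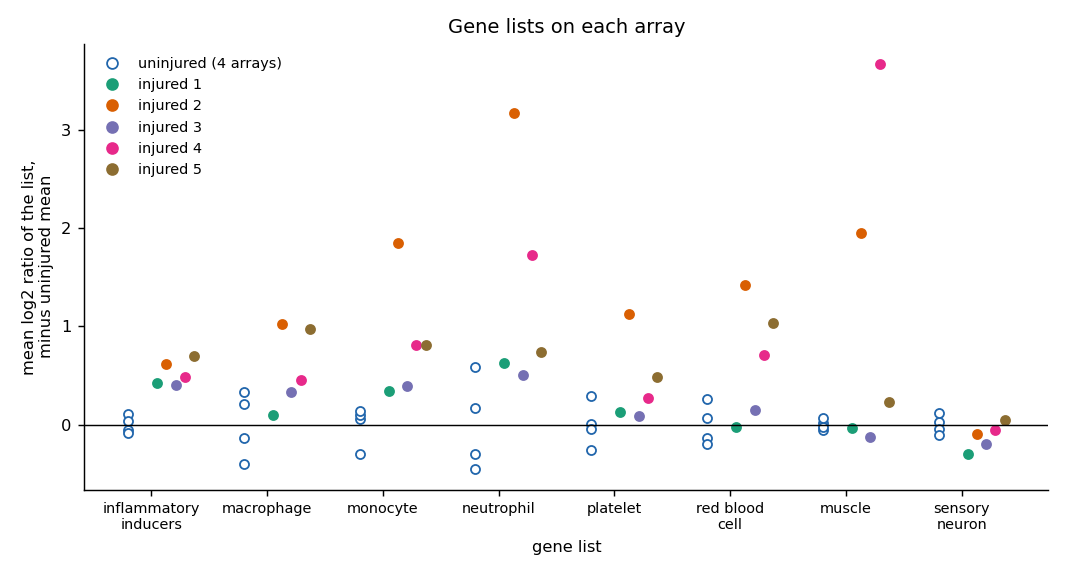
Mean log2 ratio of each gene list on each array, minus its uninjured mean, with open circles for the 4 uninjured samples and one colour for each injured sample. The mean of the list named inflammatory inducers was higher in all 5 injured samples (0.40 to 0.70). Neutrophil markers reached 3.17 in injured 2 and muscle markers 3.67 in injured 4.

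Injured 2 or injured 5 was the highest injured array for 9 of the 11 genes that rose and for 33 of the 43 tested (76.7%), against 53.7% of all genes tested and 66.0% of all genes that rose. The part of infiltrating or blood cells in these results was not tested. Without injured 2 and injured 4, the samples with the highest muscle marker means, 9 of the 43 genes passed, against 14.3% of all genes in either direction and 6.52% upward. These 9 were the 11 genes without Ccl4 and Ccl21c. The 11 had been called on arrays that include those kept here, so this is not independent of the first call. The differences then were 1.76 for Ccl12, 1.80 for Ccl7, 1.79 for Ccl8 and 0.98 for Ccl2.

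The arrays came from 3 slides. Uninjured 2, 3 and 4 shared slide 1, uninjured 1 and injured 1, 2 and 5 shared slide 2, and injured 3 and 4 shared slide 3, so that slide and group were largely confounded. A slide term therefore leaves the comparison of 1 uninjured with 3 injured samples on slide 2 as the estimate, which equals the within-slide difference. With it 4 of the 43 genes passed, all 4 among the 11, against 5.57% of all genes in either direction and 3.01% upward. These were Ccl12 (2.06 ± 0.29, SE; limma adjusted p of 0.00613), Ccl2 (1.08 ± 0.15; adjusted p of 0.00641), Ccl7 (1.99 ± 0.32; adjusted p of 0.0106) and Ccl8 (2.54 ± 0.60; adjusted p of 0.0478). They are the 4 genes of the first chromosome 11 run that rose in the fit without slide.

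The other 7 genes were higher in injured samples on slide 2 as well but missed the threshold. Within the slide the difference was 1.12 ± 0.35 (SE) for Ccl9 (limma adjusted p of 0.106), 1.01 ± 0.27 for Cxcl14 (0.0699), 0.78 ± 0.34 for Ccl4 (0.235), 0.75 ± 0.24 for Cxcl12 (0.121), 0.56 ± 0.15 for Cxcl1 (0.0695) and 0.36 ± 0.33 for Ccl21c (0.600).

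**Figure D5:**
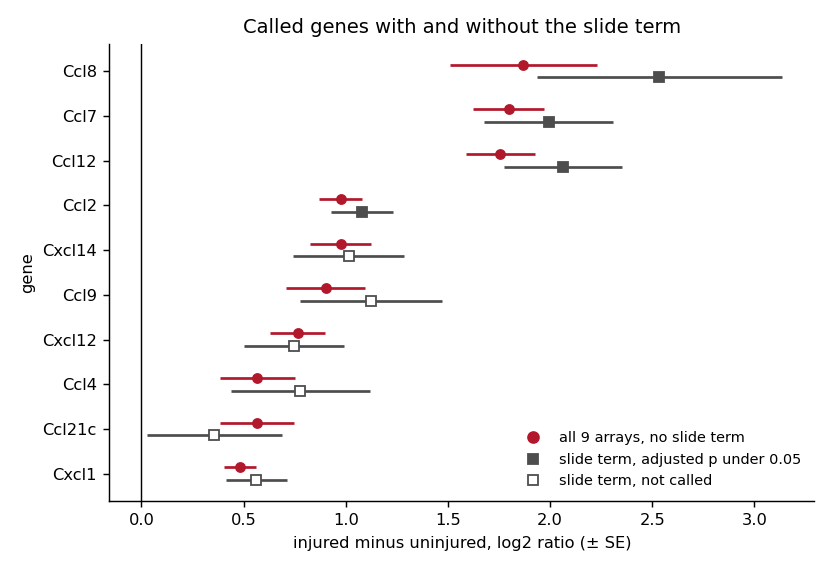
Injured minus uninjured difference of the log2 ratio with its SE for 10 genes that rose, from all 9 arrays without a slide term (circles) and with slide as a term (squares, filled where the adjusted p was under 0.05). All squares lie above 0, and the 4 filled ones are Ccl8, Ccl7, Ccl12 and Ccl2.

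The lowest injured value exceeded the highest uninjured value for 9 of the 43 genes (20.9%), against 10.8% of all genes, and the reverse held for 0, against 13.1% of all genes. These 9 were 8 of the genes that rose and Ccl19. In the Cy3 channel, where every array carried the same reference RNA, 0 of the 43 genes passed in limma and 6 had an unadjusted p under 0.05. Of all 21097 genes there, 26 (0.123%) passed and 2725 had an unadjusted p under 0.05.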

How the data were processed

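The deposited scanner files held, per the file headers, mean spot intensity and median local background intensity for each channel from Agilent Feature Extraction 10.5.1.1, not normalized. The same files give Agilent's log10 ratio, and the authors deposited a table of background-corrected, within-array normalized log2 ratios, which correlated with the values used here at 0.9994 to 0.9995. Both were used as alternatives. In R 4.3.3 with limma 3.58.1, spots flagged as non-uniform (2 to 26 per array) were left out, normexp background correction used an offset of 50, arrays were loess-normalized and repeated spots averaged. A probe was kept if Cy5 signal was well above background on 4 or more arrays, and the brightest probe stood for a gene. Groups were compared by limma's moderated test with Benjamini-Hochberg adjustment over 21097 genes, at 0.05. Of the 51 genes, 48 matched a current RefSeq accession. Between 71.0% and 78.9% of spots were above background, and the number of arrays limits the precision. The genes, lists and tests were chosen with earlier results of these data known. Named genes were those that passed, fixed ligand and receptor pairs, and the largest rise and fall that passed in other lists, except that a few genes, 1 of the 11 among them, are not reported here. Ccl1, Ccl6, Ccl11, Ccl24, Cxcl4 and further genes outside this rule were chosen after their values were seen.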

Additional observations from a re-analysis of the deposited data

Results flagged for a closer look

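The following 3 values stood apart from their group by a gap that chance gives in about 1 in 20 groups, out of 92 groups examined. Cxcl12 was at -1.12 on injured 2, above the other injured arrays. Cxcl13 was at -0.047 on injured 5, below the other injured arrays. The mean of the B cell markers was 0.41 on uninjured 4, above the other uninjured arrays.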

How the results depend on the processing

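The count of 11 genes was 4 with slide as a fixed block, and was within 1.5 times of 11 under every other alternative run, from 8 to 14 when 1 array was left out. Over all genes, 5355 passed, against 2665 with median centring, 1175 with slide as a fixed block, 3020 without injured 2 and injured 4 (chosen after the marker levels were seen), 1238 with a difference also above 1.5-fold, and 4054 to 5485 with 1 array left out. In the 27 alternatives the 11 genes kept their direction, and in 36 of 296 cases they lost their call, chiefly Ccl4 (13) and Ccl21c (13). The 27 include the difference within slide 2, which equals the estimate with slide as a fixed block. It has no test, so its cases could not lose a call. Ccl12, Ccl7, Ccl8 and Ccl2 passed in all alternatives with a test. The sizes moved, with differences of 1.64 to 2.89 for Ccl8, 1.63 to 2.25 for Ccl7, 1.64 to 2.09 for Ccl12 and 0.41 to 1.04 for Ccl4. Ccl2 stayed between 0.90 and 1.08. Estimates near 0 changed sign. Ccr6 was at -0.13 with an offset of 0, -0.14 with Agilent's log ratio, -0.011 with median centring, -0.18 in Cy5 alone, -0.44 in Cy5 processed signal, and -0.011 to 0.072 with 1 array left out. Cx3cl1 was at -0.043 with median centring, -0.0083 in Cy5 alone and -0.031 to 0.12 with 1 array left out. The cause was not tested. No paired analysis was possible because no label ties arrays of different groups to each other.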
